A study of Mus musculus with 6 samples.

Results

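The enzymes that place a single ubiquitin on histone H2B, and the transcription complex that recruits them, were followed through the transcripts of 10 genes in mouse cells that had lost Rnf20. The genes were taken by symbol from the 16982 genes of the count table: Rnf20 and Rnf40, the subunits of the ubiquitin ligase; Wac, its adaptor; Ube2a and Ube2b, the conjugating enzymes; and Paf1, Ctr9, Leo1, Cdc73 and Rtf1 of the PAF complex. They were grouped by their known function, with earlier results of these data already known. All 10 were present in the table and all 10 passed the filter on low counts, so no member is missing from what follows.

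The cells were mouse embryonic fibroblasts (MEF) from Rnf20 Flox/Flox mice that also carried Tamoxifen-cre, a Cre recombinase expressed in all tissues and switched on by 4-OH tamoxifen, with a C57BL/6 background. They had been infected with retroviruses encoding OCT4, SOX2, KLF4 and C-MYC, which start the conversion of fibroblasts into induced pluripotent stem cells, and RNA was harvested at day 3. The groups were WT reprogrammable cells (WT1, WT2 and WT3) and Rnf20-knockout reprogrammable cells (KO1, KO2 and KO3), 3 libraries of each. The study's methods describe 4-OH tamoxifen as the agent that induced the knockout, the labels give all 6 libraries as untreated, and neither says whether the WT cells received the drug. An effect of the drug or of Cre itself can therefore not be told apart from the loss of Rnf20. The methods also place infected cells on mitomycin C-treated MEF feeders 2 days after infection, and the reads of feeders and infected cells were not separated.

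Attachment of ubiquitin to H2B needs an activating enzyme (E1), a conjugating enzyme (E2) and a ligase (E3). RNF20 and RNF40 form a heterodimer of RING-finger proteins that acts as the E3, with UBE2A or UBE2B, the mammalian counterparts of yeast Rad6, as the E2. WAC binds the ligase and links it to RNA polymerase II, and the PAF complex travels with the elongating polymerase, where its RTF1 subunit stimulates the mark. The mark lies over the bodies of transcribed genes and loosens the chromatin fibre.

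The exon that holds the Rnf20 start codon lies between the loxP sites, so its sequence is shown to place the deletion in the transcript. Rnf20 spans chr4:49632006-49656887 on the plus strand of GRCm38. The study places the loxP sites in the introns around exons 2 to 4, and which exons these are depends on the transcript by which they are numbered. In the GENCODE M21 annotation, exons 2 to 4 of Rnf20-201 run from 49632365 to 49638073 and hold 297 coding bases, a multiple of 3. Those of Rnf20-210, whose 4312 bases are the length given for the gene in the deposited table, run from 49633254 to 49638334 and hold 445 coding bases, which is not a multiple of 3. Both sets sum to 473 bases, but they are different exons, and which numbering applies was not settled here. The start codon falls within exons 2 to 4 under either numbering. Coding bases 1 to 129, at chr4:49633282-49633410, are given below with the start codon in capitals.

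Rnf20: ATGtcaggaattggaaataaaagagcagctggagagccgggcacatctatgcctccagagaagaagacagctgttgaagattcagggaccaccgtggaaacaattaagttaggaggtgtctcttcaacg

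The paired E2 genes are so alike that their sequences are set side by side, since counts of either one depend on reads being told apart. The coding sequences of Ube2a and Ube2b are both 456 bases long and 77.6% identical, with 102 bases that differ, 85 of them at the last base of a codon. Coding bases 223 to 372, the most alike stretch of 150 bases, hold 25 differences, 23 of them at the last base of a codon. Capitals mark the bases that differ.

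Ube2a: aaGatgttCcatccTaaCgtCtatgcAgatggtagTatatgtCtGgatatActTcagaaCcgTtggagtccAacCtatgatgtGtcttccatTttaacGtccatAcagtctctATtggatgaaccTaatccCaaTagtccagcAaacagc

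Ube2b: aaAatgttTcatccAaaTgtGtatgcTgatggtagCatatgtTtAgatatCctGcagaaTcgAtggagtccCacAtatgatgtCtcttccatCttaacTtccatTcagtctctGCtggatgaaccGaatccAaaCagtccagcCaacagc

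Across the whole transcripts, no run of 50 bases of Ube2a or Ube2b occurs in any other gene of the annotation, and the longest run the paired coding sequences share is 17 bases. Rnf20 and Rnf40 are 61.3% identical over their aligned coding sequences, with a longest shared run of 18 bases. Reads long enough to hold 50 bases therefore had no identical place in the partner gene. Of the other members, Paf1, Ctr9 and Leo1 likewise share no 50-base run with another gene, Cdc73 shares 1, Rtf1 shares 0.520% of its runs, and Wac shares 5.37% with the predicted gene Gm18943.

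Total counts ran from 20545442 to 21746898 per library, and the lowest count of any member in any library was 344 (Rnf20 in KO3). KO3 stood apart from KO1 and KO2: the chi-square statistic per gene was 92.4 and 101 for its pairings, against 8.57 between KO1 and KO2 and 6.04 to 8.92 between WT libraries. KO1 and KO3 also carried almost no transcripts from 4 Y-linked genes (0 and 1 counts), while KO2 held 5608 and the WT libraries 4774 to 5092. As counts scaled for depth and composition (TMM-normalized CPM), 2 of 10 fibroblast markers were lower in the knockout (Thy1 and Pdgfra), with sums of 26906 to 29288 in WT and 17638 to 32908 in the knockout. Of 8 macrophage markers none passed the test, while their sum was 49.2 to 108 CPM in WT, 84.2 in KO1, 52.8 in KO2 and 233 in KO3. Endothelial markers summed to 31.6 to 66.3 CPM over the 6 libraries, with 2 of 6 tested, none called, and Emcn at 0 or 1 counts. Nearly all of that sum was Tek, and the other 5 endothelial markers together held 0.712 to 2.72 CPM. Epithelial markers summed to 21.5 to 76.5 CPM, with 1 of 5 tested called (Krt19, higher). The other 4 had log2 fold changes below 0, and the list's median was -1.09. Krt8 held 30.3, 28.4 and 29.5 CPM in WT and 18.1, 12.4 and 0.714 CPM in the knockout, and for 3 of the 5 every knockout library lay below every WT library. All 16 proliferation genes were lower, from 2075 to 2120 summed CPM in WT to 935, 816 and 358 in KO1, KO2 and KO3. Values without KO3 are given below where leaving it out changed the call of a member or list gene, and for some changes of sign or size.

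Between the genotypes, 3 of the 10 genes passed the edgeR quasi-likelihood test at an adjusted p under 0.05: Rnf20 fell, and Ube2a and Cdc73 rose. Over all 13386 genes tested, 33.0% passed at that level, 16.6% lower and 16.4% higher in the knockout, so the members' count stood close to the background. That count includes Rnf20, the gene deleted by design, and without it 2 of 9 passed, both higher. At an adjusted p under 0.01 the members called were Rnf20 and Ube2a (1 higher), against 9.88% of all genes, with 4.98% of all genes higher. Under the stricter rule taken from the study's methods (adjusted p under 0.01, absolute log2 fold change over 1 and mean FPKM over 1 in a genotype), Rnf20 was the single member called, against 3.59% of all genes, 2.08% lower and 1.5% higher. The median log2 fold change of the 10 genes was 0.10, and 0.13 for the 9 without Rnf20, beside -0.00032 for all genes tested. In CPM, every knockout library lay above every WT library for 5 members (26.6% of all genes) and below for Rnf20 alone (28.2% of all genes). Thus 6 of 10 did not overlap, or 5 of 9 without Rnf20, beside 54.8% of all genes.

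**Figure D1:**
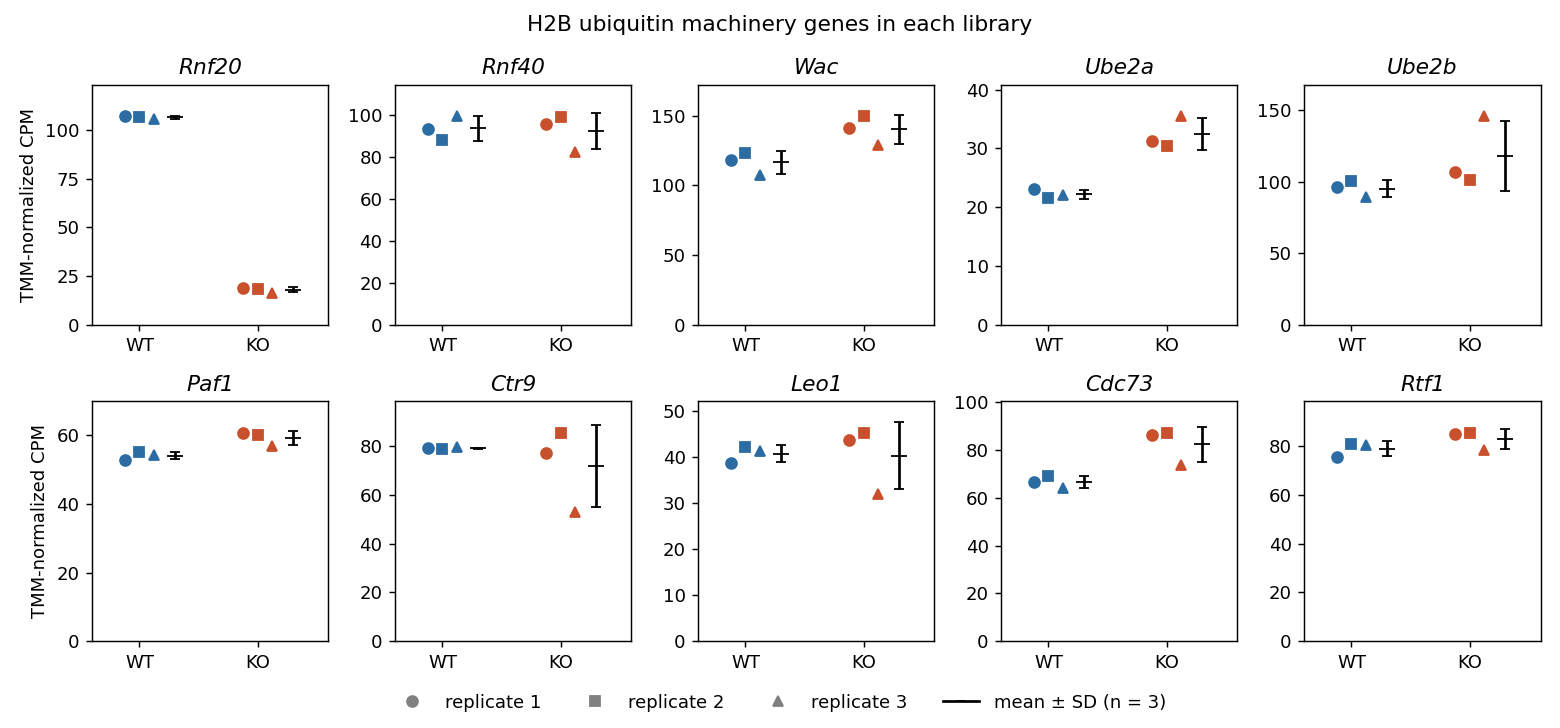
TMM-normalized CPM of the 10 genes in each of the 6 libraries, with the mean and SD of each genotype (n = 3) in black. Rnf20 fell from about 107 CPM to 16.4 to 18.7 CPM, Ube2a lay higher in each knockout library than in any WT library, and KO3 (red triangle) lay far below KO1 and KO2 for Ctr9 and Leo1 and above them for Ube2b.

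Rnf20, which encodes the RING-finger subunit targeted by the deletion, was strongly reduced in every knockout library and still detectable in each. WT1, WT2 and WT3 held 107, 107 and 106 CPM, from 2253, 2250 and 2226 counts. KO1, KO2 and KO3 held 18.7, 18.5 and 16.4 CPM, from 392, 390 and 344 counts. The groups were far apart, and the knockout libraries lay close together, KO3 included, at 17.6%, 17.4% and 15.4% of the WT mean. The log2 fold change was -2.57 (SE 0.0812, adjusted p = 0.000163, edgeR quasi-likelihood test), a fold of 0.168 with a 95% interval of 0.147 to 0.192. The deposited FPKM values gave 24.2, 22.8 and 23.2 in WT and 4.39, 4.17 and 3.87 in the knockout. The counts cover the whole gene, including exons outside the loxP sites, and reads of feeders were not separated. The counts that remained in the knockout therefore do not show their source. Infected cells that kept the floxed exons, feeder cells and transcripts that lacked those exons cannot be told apart. In these bulk samples, fewer cells with a transcript and less transcript per cell cannot be told apart.

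Rnf40, at chr7:127588767-127604799 on the plus strand, encodes the partner RING-finger subunit, and its transcript stayed near the WT level while Rnf20 was lost. WT libraries held 93.4, 87.9 and 99.4 CPM and knockout libraries 95.5, 99.0 and 82.5 CPM. The groups overlapped, with the highest WT library above all knockout libraries and KO3 below all WT libraries. In FPKM, KO3 (16.7) lay above WT2 (16.4). The log2 fold change was -0.019 (SE 0.0938, adjusted p = 0.889, edgeR quasi-likelihood test), and its 95% interval of 0.845 to 1.15 on the linear scale leaves room for changes of about that size in either direction. Without KO3 the value was 0.057. Antisense genes overlap parts of its exons (1700120K04Rik 9.71% and Gm44759 3.84% of the exon bases, neither one tested), and since the strand setting of the counting is not given, their reads cannot be told apart.

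Set against each other within a library, the ligase transcripts changed from an excess of Rnf20 to an excess of Rnf40. Per kb of gene length, the ratio of Rnf20 to Rnf40 was 1.48, 1.57 and 1.37 in WT1, WT2 and WT3. It was 0.252, 0.241 and 0.256 in KO1, KO2 and KO3, a difference of -2.56 in the mean log2 ratio, which is given without a test because Rnf20 is the deleted gene. The FPKM values gave -2.50.

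Wac encodes the adaptor of the ligase, with a coiled coil that binds RNF20 and RNF40, and lies at chr18:7868832-7929028 on the plus strand. WT libraries held 118, 123 and 108 CPM and knockout libraries 141, 150 and 129 CPM. In CPM every knockout library lay above every WT library, with the highest WT value 123 and the lowest knockout value 129. In FPKM, KO3 (40.7) lay within the WT range (39.2 to 43.3). The log2 fold change of 0.27 (SE 0.0868) did not pass the threshold (adjusted p = 0.0545, edgeR quasi-likelihood test, 95% interval 0.060 to 0.47). The call depended on the fit: the adjusted p was 0.0492 with relative log expression size factors, 0.0253 with DESeq2 and 0.00271 without KO3, and it reached 0.255 at the highest over the alternatives.

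Of the E2 enzymes, Ube2a rose in the knockout and Ube2b did not pass the test. Ube2a lies on the X chromosome at chrX:36873900-36884222 on the plus strand and held 23.1, 21.5 and 22.1 CPM in WT and 31.2, 30.5 and 35.5 CPM in the knockout. Even the lowest knockout library, KO2, stood above the highest WT library. All WT libraries held Y-linked transcripts, and KO2 was the single knockout library that did. The part of this difference between the libraries in the values of Ube2a was not tested. In the fit, Ube2a had a log2 fold change of 0.54 (SE 0.0917, adjusted p = 0.00827, edgeR quasi-likelihood test), a 1.46-fold rise with a 95% interval of 1.25 to 1.70. Leaving out any 1 library kept it between 0.48 and 0.59, with adjusted p from 0.000783 to 0.0468. With a term for Y-linked transcripts in the model the value was 0.46. KO1 and KO3 were the only libraries without those transcripts, so that value compares KO2 alone with WT. Calls from that fit are therefore not given.

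Ube2b lies at chr11:51985497-52000762 on the minus strand. It held 96.0, 100 and 89.2 CPM in WT and 107, 101 and 146 CPM in the knockout. In CPM all knockout libraries lay above all WT libraries, but KO2 exceeded WT2 by less than the spread within WT, and the group mean was carried by KO3. In FPKM, Ube2b in KO1 (97.2) lay below WT2 (97.5). Its log2 fold change of 0.31 did not pass the test (SE 0.146, adjusted p = 0.148, edgeR quasi-likelihood test, 95% interval -0.041 to 0.66), nor did the value of 0.13 without KO3 (adjusted p = 0.135).

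The balance between the E2 transcripts was not shown to shift. The per-kb ratio of Ube2a to Ube2b was 0.241, 0.214 and 0.248 in WT and 0.294, 0.302 and 0.244 in the knockout. KO1 and KO2 lay above the WT range and KO3 within it. The mean log2 ratio differed by 0.25 (exact two-sided permutation test, p = 0.2, n = 3 per group, with 0.1 the smallest p that 3 against 3 allows). Ratios of FPKM values differed by 0.26 (exact permutation p = 0.3). Without KO3 the difference was 0.35 (exact permutation p = 0.1, the smallest that 3 against 2 allows).

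**Figure D2:**
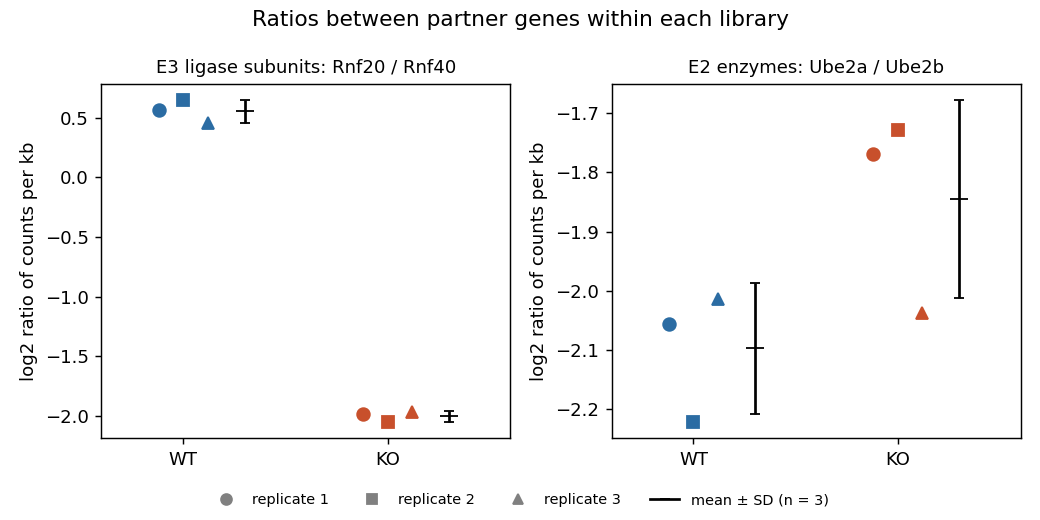
Log2 ratio of counts per kb of gene length between Rnf20 and Rnf40 (left) and between Ube2a and Ube2b (right) in each library, with the mean and SD of each genotype (n = 3) in black. The vertical axes differ in scale. The Rnf20 to Rnf40 ratio fell from above 0 to about -2.0 in all 3 knockout libraries, while for Ube2a to Ube2b the knockout library KO3 lay among the WT libraries.

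Of the 5 PAF complex genes among the members, Cdc73 rose modestly and Paf1, Ctr9, Leo1 and Rtf1 did not pass the test. Cdc73 encodes parafibromin, the subunit that binds RNA polymerase II and other partners, and lies at chr1:143598800-143702893 on the minus strand. It held 66.6, 69.3 and 64.0 CPM in WT and 86.1, 87.2 and 73.8 CPM in the knockout, where KO3 was lowest but still above every WT library. The log2 fold change was 0.31 (SE 0.0882, adjusted p = 0.0383, edgeR quasi-likelihood test), a 1.24-fold rise with a 95% interval of 1.07 to 1.43.

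The call for Cdc73 was fragile. Without KO3 it strengthened (log2 fold change 0.38, adjusted p = 0.000589), whereas leaving out any other library raised the adjusted p to between 0.0916 and 0.136. The call was also lost with scaling by library size only (adjusted p = 0.0719), without the filter on low counts (0.0541), with edgeR's exact test (0.0589) and with the replicate number as a block (0.0580). With the term for Y-linked transcripts, which compares KO2 alone with WT, the log2 fold change was 0.39. In FPKM the KO3 value lay on the other side of WT. The FPKM values were 12.6, 13.8 and 11.9 in WT and 16.2, 16.2 and 9.30 in the knockout, so that KO3 stood at 72.9% of the WT mean in FPKM and at 111% in CPM. The log2 fold change on the log2(FPKM + 1) scale was 0.076 (limma, adjusted p = 0.804). Its listed length of 11586 bases, of which 1593 are coding, is the greatest among the members, and 3.86% of its exon bases overlap B3galt2 on the other strand.

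Paf1, whose product is the scaffold that names the complex, lies at chr7:28392951-28399388 on the plus strand. It held 52.9, 55.1 and 54.2 CPM in WT and 60.7, 59.9 and 56.8 CPM in the knockout, a small separation without overlap. Its log2 fold change was 0.13 (SE 0.0667, adjusted p = 0.173, edgeR quasi-likelihood test, 95% interval -0.029 to 0.29). Without KO3 it was 0.16 and crossed the threshold (adjusted p = 0.0491).

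Ctr9, which encodes the large tetratricopeptide-repeat subunit, lies at chr7:111028951-111056377 on the plus strand. It held 79.1, 78.9 and 79.5 CPM in WT and 77.0, 85.5 and 52.9 CPM in the knockout. The WT libraries were almost equal, KO1 and KO2 lay to either side of them, and KO3 stood alone at 66.8% of the WT mean. The fit gave a log2 fold change of -0.14 (SE 0.169, adjusted p = 0.545, edgeR quasi-likelihood test, 95% interval -0.54 to 0.26), and it changed sign to 0.040 without KO3.

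Leo1, which encodes a subunit that pairs with PAF1, lies at chr9:75441524-75466432 on the plus strand and showed the same split among the knockout libraries. It held 38.8, 42.2 and 41.2 CPM in WT and 43.7, 45.3 and 32.0 CPM in the knockout. KO1 and KO2 lay above WT, and KO3 below it at 78.6% of the WT mean. With all libraries its log2 fold change was -0.015 (SE 0.138, adjusted p = 0.938, edgeR quasi-likelihood test, 95% interval -0.34 to 0.31), against 0.13 without KO3 (adjusted p = 0.146).

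Rtf1, whose product contains the module that stimulates H2B ubiquitination, lies at chr2:119675068-119735407 on the plus strand and varied little. It held 75.3, 80.9 and 80.4 CPM in WT and 85.1, 85.4 and 78.1 CPM in the knockout. KO1 and KO2 lay above WT and KO3 fell within it. This amounted to a log2 fold change of 0.071 (SE 0.0726, adjusted p = 0.471, edgeR quasi-likelihood test), and the 95% interval ran from -0.10 to 0.24. Without KO3 it was 0.11 (adjusted p = 0.144).

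**Figure D3:**
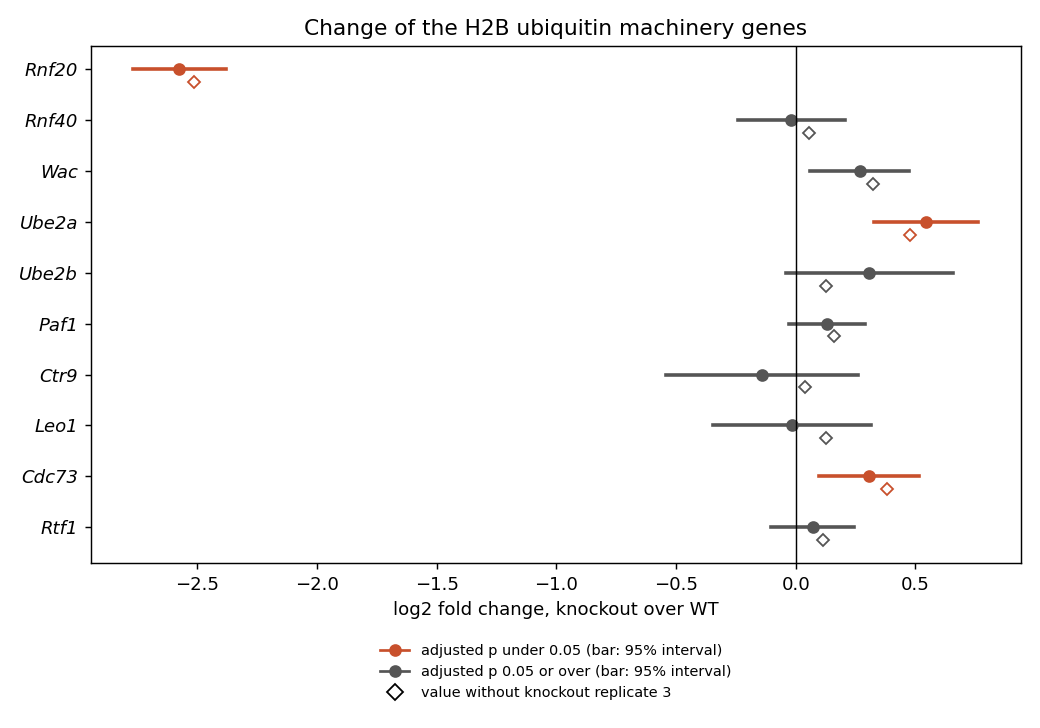
Log2 fold change of each gene in the knockout over WT (filled circles, with the 95% interval as a bar) and the value without KO3 (open diamonds). Genes with an adjusted p under 0.05 are red. Rnf20 stands at -2.57, and the other 9 genes lie between -0.14 and 0.54; without KO3, none of those 9 lies below 0.

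Within the knockout group, KO3 against the mean of KO1 and KO2 set the members apart from each other. The ratio was 0.651 for Ctr9, 0.720 for Leo1, 0.849 for Rnf40, 0.851 for Cdc73, 0.881 for Rnf20, 0.888 for Wac, 0.917 for Rtf1 and 0.942 for Paf1. It was 1.15 for Ube2a and 1.40 for Ube2b. The E2 genes were thus the members above 1, and they are also the shortest, at 1789 and 1792 bases. Paf1 and Leo1, at 2003 and 2180 bases, were nearly as short and lay below 1. Among all genes tested, the members' ratios lay between percentile 13.2 (Ctr9) and percentile 86.7 (Ube2b). Over all genes tested, the median log2 of this ratio was 0.15 for the 3348 genes with listed lengths up to 2212 bases and -0.18 for the 3347 genes of 5180 bases and more. The part of transcript length in the members' values was not tested.

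In WT cells the members' levels per length differed by 9.32-fold between the highest and the lowest. Ube2b was highest at a median of 53.6 CPM per kb, and its WT libraries did not overlap those of the next gene, Paf1 (27.1). Rnf20 (24.8) and Wac (22.6) followed, each apart from its neighbours. Leo1 (18.9) and Ctr9 (18.4) overlapped, as did Rtf1 (17.2) and Rnf40 (16.8). Ube2a (12.3) and Cdc73 (5.75) closed the order, and the paired E2 genes therefore stood far apart. In the knockout the mean for Rnf20 was 4.14 CPM per kb, beside 16.6 for Rnf40. The order of the FPKM values was the same at its ends but not within: Ube2b was again highest and Cdc73 lowest, while Wac ranked 2 instead of 4 and Ube2a 5 instead of 9.

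**Figure D4:**
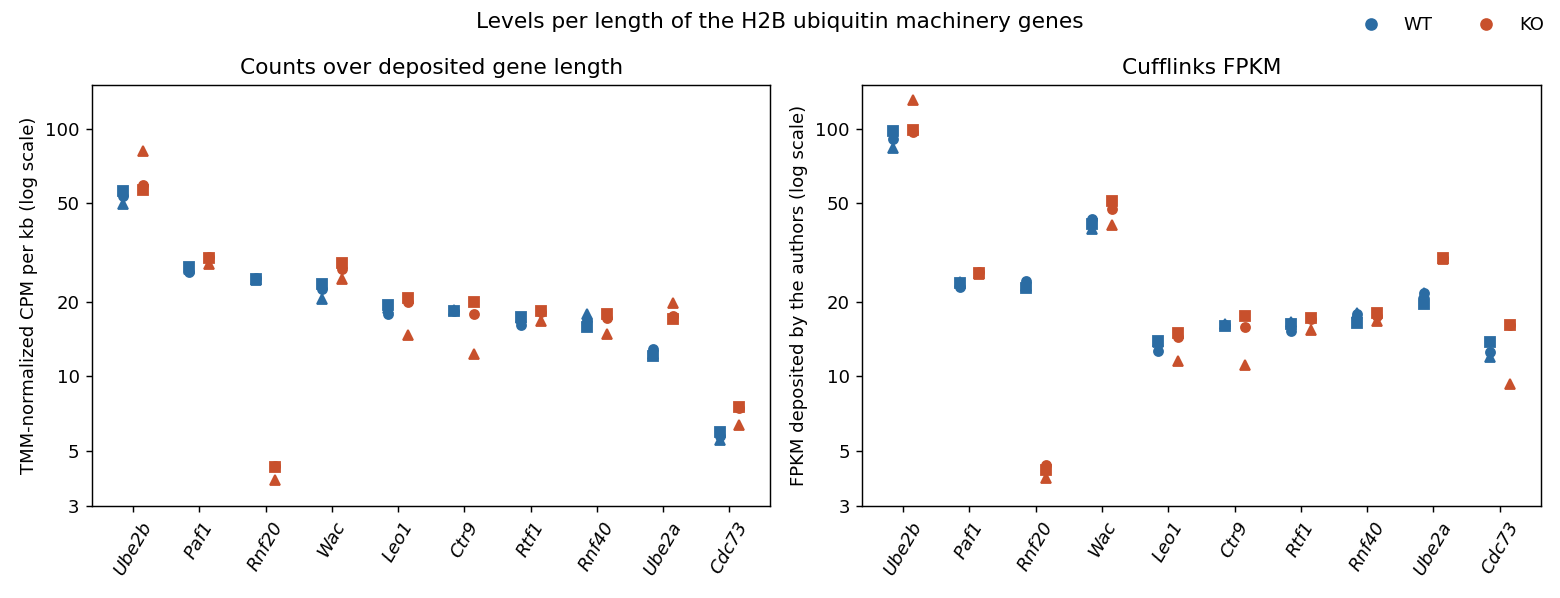
Level per length of the 10 genes in each library, as TMM-normalized CPM per kb of the listed gene length (left) and as the deposited FPKM (right), both on log axes, with WT in blue and knockout in red (circles, squares and triangles are replicates 1, 2 and 3). Genes are ordered by WT CPM per kb. Rnf20 dropped from the level of Paf1 and Wac to below 5 CPM per kb, while every library of the other 9 genes stayed above 5 CPM per kb.

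Beyond the 10 genes, 3 lists of the wider pathway were read: genes that supply ubiquitin, other ligases that work with UBE2A or UBE2B or act on H2B, and partners of the PAF complex in elongation. The last list includes Wdr61, which encodes a subunit of the mammalian PAF complex itself. All 15 genes read were tested. At an adjusted p under 0.05, 2 were higher (Ubb and Mdm2) and 2 lower (Rps27a and Rad18) in the knockout, 4 of 15 in all, beside 33.0% of all genes. Their median log2 fold change was 0.12. Without KO3, 7 were called, Supt5, Supt6 and Ubr1 being added, beside 48.1% of all genes in that fit.

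Of the 4 ubiquitin supply genes, 1 rose and 1 fell. Ubb, a polyubiquitin gene, rose from 702, 654 and 685 CPM in WT to 792, 871 and 1046 CPM in the knockout, with KO3 highest (log2 fold change 0.41, SE 0.114, adjusted p = 0.0349, edgeR quasi-likelihood test). Without KO3 its log2 fold change was 0.29 (adjusted p = 0.00273). The Ubb call was lost without any 1 of WT1, WT2, WT3 or KO2 (adjusted p from 0.0645 to 0.123), with scaling by library size only (0.0533), with the replicate block (0.0678) and with limma on FPKM (0.0604). Rps27a, which encodes ubiquitin fused to a ribosomal protein, fell from 632, 768 and 790 CPM to 453, 447 and 487 CPM (log2 fold change -0.66, SE 0.103, adjusted p = 0.00698). Uba1 and Uba6, the activating enzymes, gave -0.027 and 0.13 and were not called, and without KO3 they gave 0.11 and 0.17. For Ubb and Rps27a, 61.0% and 57.0% of 50-base runs recur in other genes, so their counts are uncertain.

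Among the other ligases, Mdm2 and Rad18 moved furthest, in opposite directions. Mdm2, the ligase of p53, which has also been tied to ubiquitin on histones, rose from 133, 126 and 125 CPM in WT to 352, 350 and 467 CPM in the knockout (log2 fold change 1.60, SE 0.127, adjusted p = 0.00178, edgeR quasi-likelihood test). It was the single list gene called under the stricter rule, and without KO3 its log2 fold change was 1.46. Rad18, which works with UBE2A and UBE2B on PCNA at stalled replication forks, fell from 30.1, 29.5 and 31.1 CPM to 16.3, 16.7 and 12.5 CPM (log2 fold change -0.997, SE 0.127, adjusted p = 0.00432). Without KO3 the log2 fold change of Rad18 was -0.87. The 16 proliferation genes moved the same way as Rad18, and their part in its values was not tested. Ubr1 and Ubr2, ligases of the N-degron pathway, gave 0.011 and -0.11 and were not called. Without KO3 they gave 0.18 (adjusted p = 0.0477) and 0.044 (adjusted p = 0.497).

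None of the 7 genes on the PAF partner list was called by edgeR's quasi-likelihood test, and none had an unadjusted p under 0.05. Wdr61, the PAF subunit among them, held 59.1, 56.9 and 62.9 CPM in WT and 63.6, 66.4 and 67.3 CPM in the knockout. In CPM the groups did not overlap, and its log2 fold change was 0.14 (adjusted p = 0.170). In FPKM they overlapped, at 55.8, 54.3 and 63.1 in WT and 59.4, 63.2 and 55.5 in the knockout. Of the exon bases of Wdr61, 33.9% overlap Dnaja4 on the other strand, and the strand setting of the counting is not given. The log2 fold changes of the 7 ran from 0.024 (Cdk9, the kinase of P-TEFb) to 0.21 (Supt6, a histone chaperone of elongation). Supt6 held 205, 204 and 213 CPM in WT and 270, 282 and 168 CPM in the knockout, with KO1 and KO2 above WT and KO3 below. In CPM the split resembles that of Leo1, but in FPKM KO3 (31.8) lay above every WT library (25.9 to 29.0) for Supt6. Without KO3 the log2 fold change of Supt6 was 0.41 (adjusted p = 0.000127), and that of Supt5, a subunit of the elongation factor DSIF, was 0.24 (adjusted p = 0.00282). With all libraries DESeq2 also called none of the 7, whereas limma on log2(FPKM + 1) called Supt6 (0.32, adjusted p = 0.0318).

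**Figure D5:**
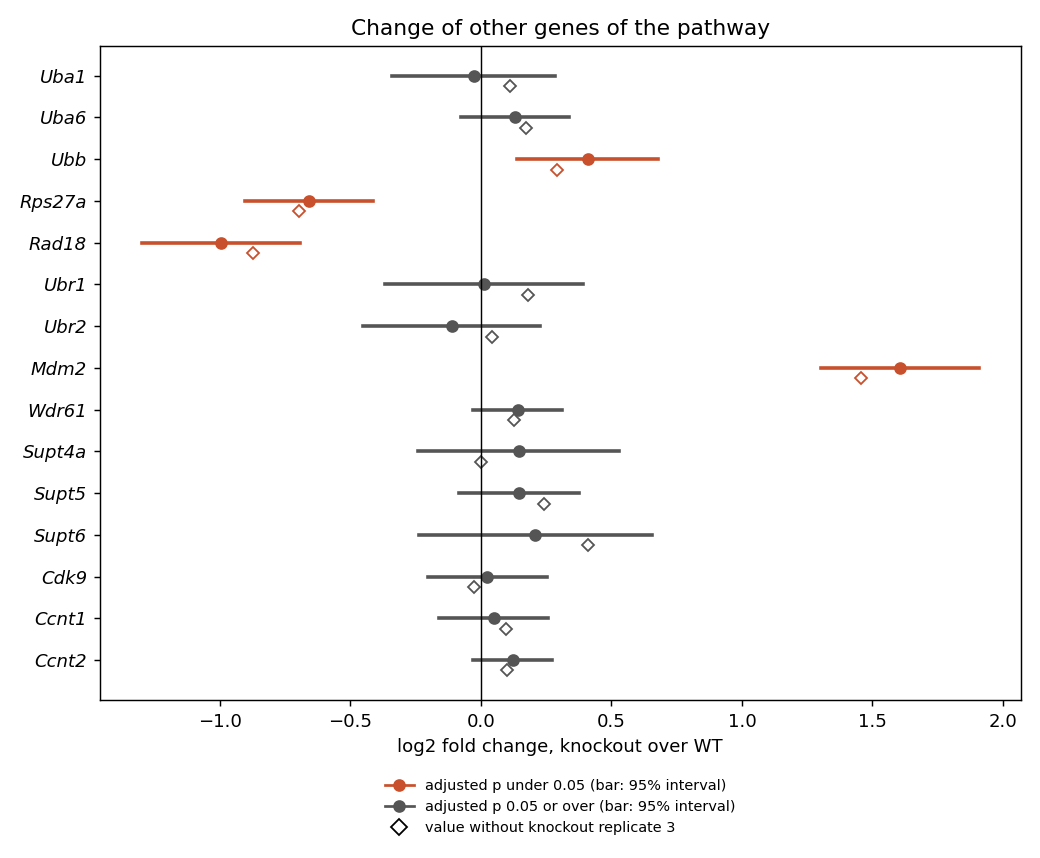
Log2 fold change in the knockout over WT of the 15 tested genes of the ubiquitin supply (Uba1 to Rps27a), other ligases (Rad18 to Mdm2) and the PAF partner list (Wdr61 to Ccnt2), with the 95% interval as a bar and the value without KO3 as an open diamond. Red marks an adjusted p under 0.05: Mdm2 at 1.60 and Rad18 at -0.997 lie farthest from 0, and the genes of the PAF partner list cluster between 0.024 and 0.21.

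The genes that flank Rnf20 on chromosome 4 were read because the deletion is local. The nearest tested gene was Grin3a, a glutamate receptor subunit on the minus strand. The end of that gene, not its start, lies 4724 bases past the end of Rnf20. Grin3a held 7.94, 6.65 and 6.79 CPM in WT and 7.97, 6.03 and 0.953 CPM in the knockout, so that KO3 alone was low (log2 fold change -0.51, adjusted p = 0.546, edgeR quasi-likelihood test, and -0.023 without KO3). On the other side, Tmem246 gave 0.39 (adjusted p = 0.119), Zfp189, a zinc-finger gene that fell, -0.39 (adjusted p = 0.0396) and Mrpl50 -0.18 (adjusted p = 0.0933). With 1 library left out, the adjusted p of Zfp189 ran from 0.0368 to 0.139. Farther downstream, Smc2, a condensin subunit, was lower at -1.49 (adjusted p = 0.0122) and lies 2782356 bases away, and Nipsnap3b gave -0.19 (adjusted p = 0.236). Without KO3 Smc2 gave -1.20, and with another library left out its adjusted p reached 0.0517. Between genotypes, none of the 6 had a log2 fold change near the -2.57 of Rnf20. In KO3 alone, Grin3a and Smc2 lay far below WT, Smc2 at 27.8 CPM beside 64.1 in KO1, 59.6 in KO2 and 137 to 146 in WT.

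Across the 6 libraries, the profiles most like that of Rnf20, by Pearson's r of log2 CPM, were those of Zfp367, Stxbp2, Cyp39a1 and Rnf220 (r = 0.998 each) and Lsm2 (r = 0.997). These values describe a step between genotypes with close replicates, and the 6 points share the same libraries. The sizes of the steps differed, with log2 fold changes of -0.78 for Zfp367, -0.27 for Stxbp2, -1.81 for Cyp39a1, -0.63 for Rnf220 and -0.68 for Lsm2, all smaller than the -2.57 of Rnf20.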

How the data were processed

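RNA sequencing of 3 WT and 3 Rnf20-knockout libraries was read from tables deposited by the authors. The count table holds raw read counts and lengths for 16982 genes, and a separate table holds FPKM values for 12633 genes. The log2 fold changes and false discovery rates of the authors' own comparison, also deposited, were not used. The deposited counts were not normalized; the counting program and its strand setting are not given in the sources used here. The FPKM values deposited by the authors were made after alignment to GRCm38, and the submitters' processing notes name HISAT2 2.1.0 and Cufflinks 2.1.1. All per-sample columns were matched to a library by name.

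Counts of 20545442 to 21746898 per library were tested with edgeR 4.0.16 in R 4.3.3 (filterByExpr, TMM, glmQLFit and glmQLFTest), with Benjamini-Hochberg adjustment over the 13386 genes that passed the filter. CPM values are TMM-normalized, and 95% intervals come from the same fit. DESeq2 1.42.0 and limma 3.58.1 served as alternatives, the latter on log2(FPKM + 1) of the deposited FPKM. The scripts were tested on simulated data. Named are the 10 members, list genes with an adjusted p under 0.05 (others by range or as examples), the 3 nearest tested genes on each side of Rnf20, and the 5 genes most correlated with it. The 10 members and the lists were chosen with earlier results of these data known, and some genes of the wider pathway are not reported here. Nothing in the labels says that replicates came from separate animals or cultures, so p-values measure the spread between these libraries. The Y-linked counts show that the knockout libraries did not all come from the same cells, and how much of the spread is technical is not known. Positions and sequences are from GENCODE M21 on GRCm38.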

Additional observations from a re-analysis of the deposited data

How the results depend on the processing

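The Rnf20 decrease kept its sign under all 15 alternatives, from -2.64 (library size only) to -2.25 (limma on FPKM), and from -2.60 to -2.51 when 1 library was left out. Calls were read in every alternative except the Y-linked term, and Rnf20 kept its call in each of them. The count of members lower in the knockout was 1 throughout. The count of members higher in the knockout, 2 as reported, was 1 with library size only, without the filter on low counts, with edgeR's exact test, with limma on log2(FPKM + 1) and at an adjusted p under 0.01. It was 3 (Wac added) with relative log expression size factors and with DESeq2. Leaving out single libraries gave 1 to 4, with 4 (Ube2a, Cdc73, Wac and Paf1) when KO3 was left out. In the fit without KO3, 3230 of all 13529 genes tested were higher. The pathway genes changed, 4 as reported, numbered 3 to 7 when single libraries were left out, with 7 when KO3 was left out. Of all genes, 48.1% were called in the fit without KO3. The Y-linked term and limma on FPKM were chosen after seeing the data. The Y-linked term compares KO2 alone with WT, so it is read for effect sizes only.

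Values near 0 changed sign without passing any threshold. Rnf40 gave 0.024 without WT3, 0.057 without KO3, 0.081 with the Y-linked term and 0.0022 with limma on FPKM, and from -0.068 to 0.057 over the fits with 1 library left out. Ctr9 gave 0.040 without KO3 and 0.11 with the Y-linked term (-0.28 to 0.040 with 1 library left out). Leo1 gave 0.0075 without WT2, 0.13 without KO3, 0.15 with the Y-linked term and 0.012 with limma on FPKM (-0.10 to 0.13 with 1 library left out). The cause of these changes was not tested.

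The replicate numbers are shared by both genotypes, but same-numbered libraries did not deviate together (correlations of deviations -0.066, 0.037 and 0.011). With the replicate number as a block, 1 member was higher (Ube2a), the adjusted p of Cdc73 was 0.0580, and calls over all genes fell from 4413 to 2875. Calls over all genes were 6510 without KO3, and from 1396 to 3748 without another library. Scaling by library size alone shifted the median of all genes to -0.060, with 2684 lower and 1750 higher against 2218 and 2195. Depth was similar across libraries, and the lowest member count of 344 did not limit detection of any member.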

Other observations

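Ube2a and Ube2b belong to a large family of conjugating enzymes, and the family was looked up by symbol after the values of its H2B members had been seen. Of 32 tested genes whose symbols begin with Ube2, 16 were higher and 3 lower at an adjusted p under 0.05 (edgeR quasi-likelihood test), and the median log2 fold change was 0.33, beside 16.4% higher and 16.6% lower among all genes tested. KO3 was the highest library for all 16 that were higher. Without KO3, 17 were higher and 4 lower with a median of 0.19. Over all 13529 genes tested in that fit, 3230 were higher and 3280 lower. With the term for Y-linked transcripts, which compares KO2 alone with WT, the median of the family was 0.21. The highest were Ube2f, an E2 for NEDD8, at 0.70 (adjusted p = 0.0138), Ube2h at 0.63 (adjusted p = 0.0064) and Ube2j1, an E2 of the endoplasmic reticulum, at 0.61 (adjusted p = 0.00610). Ube2a, at 0.54, lay just behind these. The genes that fell were Ube2c (-1.69, adjusted p = 0.00739) and Ube2s (-0.33, adjusted p = 0.0288), both E2 enzymes of the anaphase-promoting complex, and Ube2t (-1.61, adjusted p = 0.0124), the E2 of the Fanconi anaemia pathway. Since the family was chosen after its values were known, no test of it as a group was made.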
